A study of Mus musculus with 4 samples.

Results

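The genes described here are 7 genes of renal phosphate handling and its hormonal control, out of 32285 genes counted: the sodium-phosphate cotransporters Slc34a1, Slc34a3, Slc20a1 and Slc20a2, the coreceptor gene Kl, the receptor gene Fgfr1 and the receptor gene Pth1r. They were chosen by name, with earlier results of these data known, and each symbol matched 1 gene. RNA was measured by Visium, which captures polyadenylated transcripts of a tissue section on barcoded spots and counts molecules by unique molecular identifiers (UMIs), and a spot can hold several cells of different types. All sections were of left kidneys from male wild-type C57BL/6J mice aged 7 to 8 weeks. The normal control group had 2 sections, and the ischemic group had 2 sections from mice whose renal pedicles on both sides were clamped for 30 min and whose kidneys were taken 24 h later. The 4 sections used here, each 10 µm thick, carry 1 slide number in the labels and lay on its 4 areas. No source used here gives the mouse behind a section, and the study had technical as well as biological replicates, so p-values measure the spread between sections, which may in part be technical.

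Phosphate filtered at the glomerulus is taken back mainly by proximal tubule cells, through cotransporters in the brush border. Parathyroid hormone, acting on the receptor encoded by Pth1r, and the bone hormone FGF23, acting on an FGF receptor joined to Klotho, both lower this uptake. In the kidney Klotho is best known from the distal convoluted tubule and is also made in the proximal tubule.

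In whole sections, the RNA of both SLC34 transporters, Kl and Pth1r was lower in ischemic than in normal kidneys, the RNA of both SLC20 transporters was higher, and Fgfr1 RNA was not shown to differ. The falls ran from 1.98-fold for Pth1r to 21.7-fold for Slc34a3. Within kidney zones the called genes kept these directions, except that the cortical difference of Pth1r did not pass the test while its falls in the outer stripe and deeper zones did, the deepest of them not under every zone rule. In the ischemic cortex, spots in surroundings rich in the injury transcript Havcr1 held less Slc34a1 and Pth1r than spots in surroundings poor in it. They also held less of the proximal tubule markers. In the ischemic outer stripe the same split called 0 of the 6 genes tested.

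The 250 bases before the RefSeq start are shown for 4 of the genes, the 3 whose RNA fell most and Slc20a1, whose RNA rose most, to set beside each other promoters of genes that moved in opposite directions. They come from RefSeq (GRCm38.p6), in which 5 of the 7 genes had an entry, and they end at the base before that start. This start is not always the outer end of the GENCODE gene span given further on: the Slc34a1 window lies inside that span, those of Slc34a3 and Slc20a1 overlap its end, and that of Kl ends at it. Capitals mark matches on either strand to 5 letter strings that were searched: GTTAAT, an HNF1 half-site, CAAAGTCC, an HNF4 string, AGGTCA, a nuclear receptor half-site, TATAAA, and TGACGTCA, a cyclic AMP response element. No string overlapped another in these windows.
Slc34a1, chr13:55399398-55399647, plus strand: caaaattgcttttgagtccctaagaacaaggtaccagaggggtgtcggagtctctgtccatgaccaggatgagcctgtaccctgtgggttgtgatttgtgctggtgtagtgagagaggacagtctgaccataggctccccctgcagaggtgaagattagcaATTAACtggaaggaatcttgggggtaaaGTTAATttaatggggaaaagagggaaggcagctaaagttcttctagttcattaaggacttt
Slc34a3, chr2:25234235-25234484, minus strand: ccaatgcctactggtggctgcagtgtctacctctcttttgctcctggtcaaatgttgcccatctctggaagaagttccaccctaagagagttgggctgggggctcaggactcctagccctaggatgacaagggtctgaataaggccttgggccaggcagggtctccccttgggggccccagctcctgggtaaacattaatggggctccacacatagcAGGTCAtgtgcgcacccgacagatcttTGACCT
Kl, chr5:150952357-150952606, plus strand: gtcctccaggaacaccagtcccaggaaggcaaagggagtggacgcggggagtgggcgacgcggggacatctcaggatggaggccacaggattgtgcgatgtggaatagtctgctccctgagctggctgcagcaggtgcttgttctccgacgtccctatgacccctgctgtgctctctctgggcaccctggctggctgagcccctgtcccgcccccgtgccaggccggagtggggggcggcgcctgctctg
Slc20a1, chr2:129198523-129198772, plus strand: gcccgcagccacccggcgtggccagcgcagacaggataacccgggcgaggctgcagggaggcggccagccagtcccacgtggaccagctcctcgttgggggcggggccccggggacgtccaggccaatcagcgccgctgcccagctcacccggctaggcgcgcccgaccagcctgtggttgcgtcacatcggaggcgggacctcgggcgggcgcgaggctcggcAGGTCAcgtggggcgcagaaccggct

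The Slc34a1 window held the HNF1 half-site at 2 places, 89 to 84 and 61 to 56 bases before the start, and 6.44% of the 32817 promoter windows of this length held it at least once. The strings without a match in the 4 windows occurred in 1.20% (CAAAGTCC), 12.4% (TATAAA) and 1.55% (TGACGTCA) of all windows. The nuclear receptor half-site stood at 2 places in the Slc34a3 window and at 1 place in the Slc20a1 window, against 14.0% of all windows with at least 1. The window of Kl held none of the 5 strings. A match describes letters only, and a window without a match says nothing of a factor.

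The sections held between 25957128 and 44528078 UMIs over 2401 to 2682 spots under tissue, 10312 spots in all, and mitochondrial transcripts made up 4.91% to 5.21% of UMIs in normal and 3.36% to 3.99% after ischemia. The labels were checked on Havcr1, which encodes the tubular injury marker KIM-1, at 1.17 and 2.14 CPM in normal and 1288 and 1280 CPM in ischemic sections. CPM here are counts relative to the library total after TMM scaling. Beside the results below, the summed CPM of 10 proximal tubule markers was 2675 and 2266 in the normal sections but 738 and 731 in the ischemic ones, and all 10 fell. A fall in a section can reflect fewer cells of a type or less RNA per cell, and these cannot be told apart here.

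Slc34a1, which lies on chromosome 13 from 55398187 to 55415592 (GRCm38, GENCODE M21) and encodes NaPi-IIa, the main phosphate cotransporter of the mouse proximal brush border, was at 2387 and 2044 CPM in normal sections 1 and 2 and at 186 and 174 CPM in ischemic sections 1 and 2. Every ischemic section was far below every normal one. The log2 fold change was -3.62 ± 0.18 (SE), a 12.3-fold fall (edgeR quasi-likelihood test, Benjamini-Hochberg adjusted p = 5.78e-07). Across all genes tested this comparison was called for 60.6% (9279 of 15305), 31.0% higher and 29.7% lower, so the 6 calls among the 7 genes are to be read against a background in which most genes differed.

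Slc34a3, on chromosome 2 from 25228898 to 25234364, encodes NaPi-IIc, a second brush-border cotransporter. It was at 26.1 and 25.3 CPM in the normal sections and 1.24 and 1.12 CPM in the ischemic sections, from 964 and 698 counts against 42 and 32 counts. The groups did not overlap, and the log2 fold change was -4.44 ± 0.14 (adjusted p = 7.69e-08). It had at least 1 count in 22.7% and 17.3% of normal spots and in 1.75% and 1.07% of ischemic spots.

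The SLC20 transporters PiT-1 and PiT-2 are expressed in many cell types, and PiT-2 also sits in the proximal brush border. Slc20a1, on chromosome 2 from 129198764 to 129211616, was at 12.2 and 13.3 CPM in normal and 45.0 and 45.5 CPM in ischemic sections. It rose 3.55-fold, by a log2 fold change of 1.83 ± 0.10 (adjusted p = 8.07e-07), with no overlap between the groups. Slc20a2, on chromosome 8 from 22476788 to 22569612, was at 26.4 and 26.1 CPM in normal and 42.5 and 45.1 CPM in ischemic sections.

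Slc20a2 also rose without overlap, though less, with a log2 fold change of 0.74 ± 0.09 (adjusted p = 0.000128). Its locus overlaps Smim19 on the opposite strand, which held 2238 and 1293 counts in normal and 604 and 515 after ischemia, and Gm17491 on the same strand, which held 235 to 317 counts in each section. No source used here says whether counting used strand, and a part of these genes in the Slc20a2 counts was not tested.

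Kl, on chromosome 5 from 150952607 to 150993817, encodes Klotho, the coreceptor that gives FGF receptors their affinity for FGF23. It was at 176 and 186 CPM in normal and 39.4 and 35.6 CPM in ischemic sections. Both ischemic sections lay below both normal ones, and Kl fell 4.83-fold (log2 fold change -2.27 ± 0.12, adjusted p = 6.69e-07). Markers of the distal convoluted tubule, 4 genes of which 3 fell, summed to 288 and 273 CPM in normal and 109 and 93.0 CPM in ischemic sections, and their part in the fall of Kl was not tested.

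Fgfr1, on chromosome 8 from 25513654 to 25575718, encodes the receptor thought to serve as Klotho's main partner in the kidney. Its levels were 29.4 and 27.8 CPM in normal and 31.4 and 32.8 CPM in ischemic sections, close together though without overlap. The log2 fold change of 0.17 ± 0.09 did not pass (adjusted p = 0.145), with an interval of 2 SE from -0.02 to 0.35. Scaling by library size alone, which moved the median log2 fold change of all genes from 0.04 to 0.31 and turned 4737 higher and 4542 lower calls into 5750 and 2829, gave Fgfr1 0.44 (adjusted p = 0.0190). Without normal section 1 it was 0.21 (adjusted p = 0.0277), and its adjusted p ran from 0.0190 to 0.522 over the alternatives.

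Pth1r, on chromosome 9 from 110722085 to 110747145, encodes the G protein-coupled receptor for parathyroid hormone. It was at 512 and 372 CPM in normal and 234 and 212 CPM in ischemic sections, so that the normal sections differed from each other more than the ischemic ones did. The fall of 1.98-fold passed the test (log2 fold change -0.99 ± 0.17, adjusted p = 0.000878). It was the smallest of the 4 falls.

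**Figure D1:**
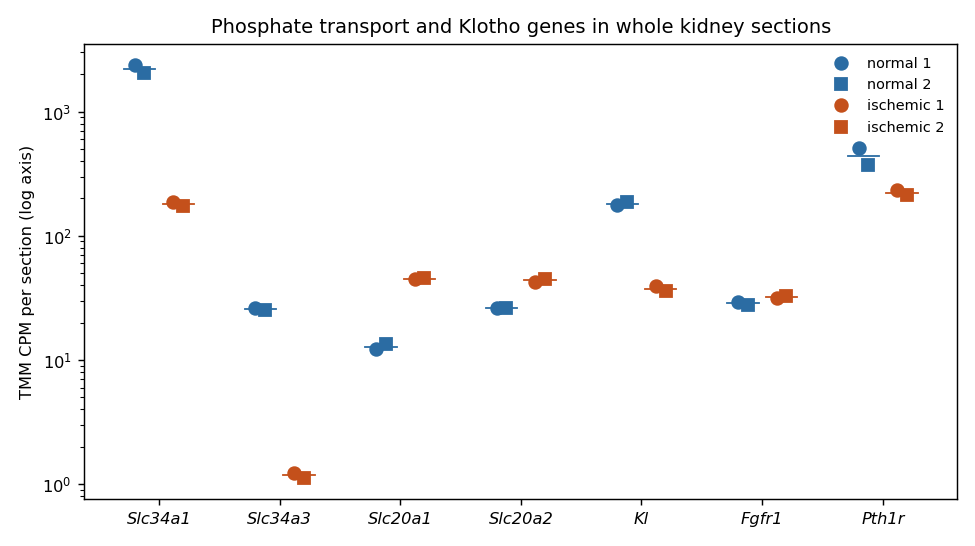
TMM-scaled CPM of the 7 genes in each whole section on a logarithmic axis, with normal sections in blue, ischemic sections in orange, circles for section 1, squares for section 2 and short lines at the group means of 2 sections. Slc34a1 goes from 2387 and 2044 to 186 and 174 CPM and Slc20a1 from 12.2 and 13.3 to 45.0 and 45.5 CPM, while the Fgfr1 points stay between 27.8 and 32.8 CPM.

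Set against the summed counts of the 10 proximal markers in the same section, the genes parted. Slc34a1 still stood lower, at 893 and 902 counts per 1000 proximal marker counts in normal and 252 and 238 after ischemia. Slc34a3 likewise went from 9.77 and 11.2 to 1.67 and 1.53. These 2 transporters therefore had lower values after ischemia also relative to this marker sum. The single markers fell by 1.45-fold (Slc22a6) to 11.2-fold (Gatm), and the sum weighs abundant markers most.

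Kl was at 65.9 and 82.2 per 1000 proximal marker counts in normal and 53.3 and 48.7 after ischemia, a much narrower gap than in CPM. Pth1r stood the other way round, at 191 and 164 in normal and 316 and 290 after ischemia. Its RNA thus made up less of the section after ischemia but more relative to the proximal marker sum, which fell further. Within the zones described below, the Kl ratio differed in direction. It went from 81.7 and 102 in normal to 50.2 and 43.1 in ischemic cortex. In the outer stripe it went from 42.3 and 58.4 to 66.9 and 71.0, and the groups overlapped in the inner stripe and inner medulla. These ratios are given without a test. Slc5a2, Slc5a12, Slc22a6 and Slc22a8 are among both the proximal markers and the markers that drew the cortex. The ratios by zone, here and below, thus share genes with the zone rule, and its part in them was not tested.

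Zones were then drawn in each section from marker transcripts, with no gene of the 7 among the markers. The cortex took 44.8% and 42.8% of spots in normal and 39.4% and 36.2% after ischemia, the outer stripe 30.8% and 30.7% against 26.0% and 26.2%. The 2 zones called inner medulla in normal sections were small, 135 and 224 spots with medians of 7364 and 5286 UMIs, and held 1479 and 1211 CPM of the proximal markers, so they are unlikely to be pure and values there are given for completeness.

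In normal kidneys Slc34a1 was at 4666 and 4108 CPM in the cortex, 1101 and 1249 CPM in the outer stripe and 624 and 717 CPM in the inner stripe. Each zone lay below the one outside it in both sections. The difference of outer stripe and cortex was -1.90 ± 0.21 on the log2 scale (adjusted p = 2.65e-06). Between these zones, 3 of the 7 genes were called in normal sections, against 15.0% of all genes.

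The other calls were Slc34a3 and Kl. Slc34a3 fell from 49.6 and 52.3 CPM in the cortex to 13.5 and 14.3 CPM in the outer stripe (log2 -1.88 ± 0.18, adjusted p = 7.32e-07). Kl went from 320 and 356 CPM to 110 and 140 CPM (log2 -1.44 ± 0.17, adjusted p = 4.80e-06). Pth1r behaved unlike these 3, at 676 and 533 CPM in the cortex and 593 and 476 CPM in the outer stripe, a difference of -0.18 ± 0.28 that did not pass (adjusted p = 0.773).

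Farther in, 5 of 7 genes were lower in the normal inner stripe than in the cortex, against 20.8% of all genes called and 9.9% called lower. Slc34a3 was at 4.73 and 5.77 CPM there and Kl at 65.1 and 71.6 CPM (log2 -2.31 ± 0.18, adjusted p = 1.69e-08). Pth1r was at 386 and 210 CPM in this zone (log2 -1.02 ± 0.29, adjusted p = 0.0157), with normal section 1 clearly above section 2. This call ended when ischemic section 1 or 2 was left out, with adjusted p of 0.109 in both cases and a range from 2.45e-10 to 0.109 over all alternatives.

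Slc20a1 was lower in the normal inner stripe and inner medulla zone than in the cortex. It was at 16.1 and 17.5 CPM in the cortex, 11.9 and 14.5 CPM in the outer stripe and 12.7 and 10.9 CPM in the inner stripe, and the inner stripe differed from the cortex by the test (log2 -0.49 ± 0.17, adjusted p = 0.0455) while the outer stripe did not. That call was lost under 7 of 16 alternatives, whose adjusted p reached 0.421. In the inner medulla zone Slc20a1 was at 7.40 and 10.7 CPM (log2 -0.84 ± 0.24, adjusted p = 0.0112), a call lost under 6 of 16 alternatives, among them without normal section 1 (adjusted p = 0.0925) or 2 (adjusted p = 0.0508), with a range from 0.00816 to 0.308. Slc20a2 was at 27.6 and 29.1 CPM in the cortex, 35.6 and 32.9 CPM in the outer stripe and 25.2 and 25.4 CPM in the inner stripe, and Fgfr1 at 29.9 and 29.7, 35.6 and 36.9, and 34.4 and 30.2 CPM, with no call for either gene in any normal zone.

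In the normal inner medulla zone, Slc34a1 was at 1070 and 736 CPM, Slc34a3 at 19.4 and 8.90 CPM and Kl at 86.0 and 47.5 CPM. Slc34a1 and Slc34a3 were thus higher in both sections there than in the inner stripe. Pth1r was at 261 and 124 CPM. Between this zone and the cortex 5 of 7 genes were called, each of them lower, against 36.1% of all genes called and 17.7% called lower.

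**Figure D2:**
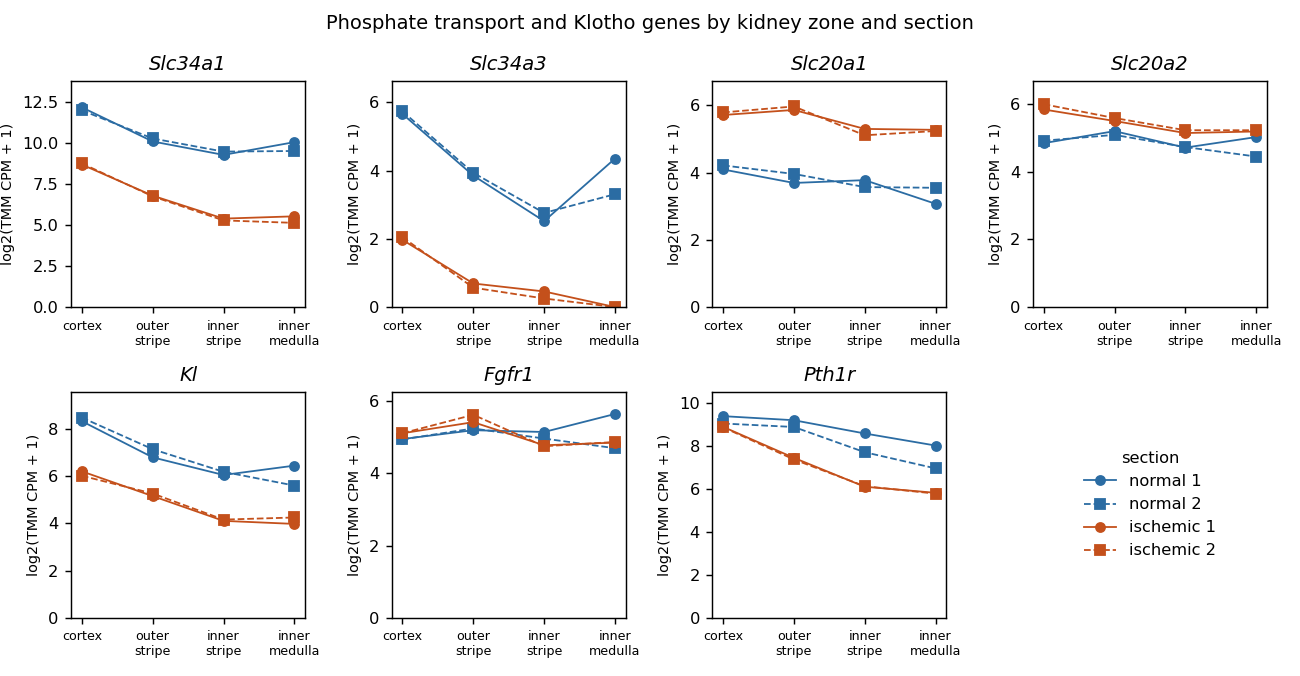
Level of each gene as log2(TMM CPM + 1) in cortex, outer stripe, inner stripe and inner medulla, with 1 line per section, blue for normal and orange for ischemic, solid with circles for section 1 and dashed with squares for section 2. For Slc34a1, Slc34a3 and Kl both ischemic lines lie below both normal lines in every zone, with a gap that varies between zones, the Pth1r lines are close in the cortex (676, 533, 478 and 472 CPM) and part in the outer stripe, and the Fgfr1 lines lie together.

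Within the cortex, 5 of the 7 genes differed between ischemic and normal sections, against 40.3% of all genes. Slc34a1 was at 414 and 435 CPM in the ischemic cortex (log2 fold change -3.37 ± 0.23, adjusted p = 1.01e-09) and Slc34a3 at 2.92 and 3.14 CPM (-4.07 ± 0.22, adjusted p = 2.52e-10). Both were below the normal cortex in every section. Kl was at 72.6 and 63.7 CPM there, a fall of 4.95-fold (-2.31 ± 0.17, adjusted p = 4.84e-09).

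Slc20a1 stood at 51.4 and 54.2 CPM in the ischemic cortex, 3.15-fold higher (1.65 ± 0.13, adjusted p = 5.16e-09). Slc20a2 was at 56.1 and 62.6 CPM, a rise of 2.09-fold (1.06 ± 0.12, adjusted p = 9.82e-07). Neither overlapped the normal sections. Fgfr1 was at 33.5 and 33.6 CPM (0.17 ± 0.15, adjusted p = 0.383).

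Pth1r was at 478 and 472 CPM in the ischemic cortex, against 676 and 533 CPM in the normal cortex. The groups did not overlap, but the difference of -0.35 ± 0.28 did not pass (adjusted p = 0.354), and its interval of 2 SE, from -0.91 to 0.22, leaves room for a moderate fall. Without normal section 2 it was -0.51 (adjusted p = 1.85e-05), with a separate fit for each zone -0.33 (adjusted p = 0.0346), and adjusted p ranged up to 0.683 over the alternatives.

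In the outer stripe, the zone of the straight proximal tubule, 6 of the 7 genes were called, against 57.0% of all genes. Slc34a1 was at 110 and 107 CPM in ischemic sections (-3.43 ± 0.23, adjusted p = 3.69e-10). Slc34a3 was down to 6 and 4 counts, or 0.614 and 0.483 CPM, against 139 and 112 counts in normal sections (-4.59 ± 0.34, adjusted p = 5.53e-09). Kl was at 34.6 and 37.4 CPM (-1.80 ± 0.18, adjusted p = 7.01e-08).

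Pth1r was at 175 and 166 CPM in the ischemic outer stripe, below the 593 and 476 CPM of the normal sections, and fell 3.14-fold (-1.65 ± 0.29, adjusted p = 8.18e-05). Slc20a1 was at 57.2 and 61.5 CPM, up 4.51-fold (2.17 ± 0.13, adjusted p = 1.46e-10), and this was its highest zone in both ischemic sections. Slc20a2 was at 44.1 and 46.9 CPM, a rise of 1.32-fold (0.41 ± 0.12, adjusted p = 0.00833). The Slc20a2 call was lost without ischemic section 1 (adjusted p = 0.0867) or section 2 (adjusted p = 0.164), where its alternatives spanned 0.000226 to 0.164.

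Fgfr1 was at 41.7 and 48.2 CPM in the ischemic outer stripe and did not pass (0.31 ± 0.15, adjusted p = 0.0786). It passed under 8 of 16 alternatives, all with a positive value, with adjusted p from 0.00122 to 0.525. Among them were library size alone (0.71) and the fits without normal section 1 (0.38) or section 2 (0.33).

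In the inner stripe, 6 of 7 genes were called, against 48.4% of all genes. Slc34a1 was at 41.1 and 38.0 CPM in ischemic sections (-4.08 ± 0.24, adjusted p = 2.57e-10), Kl at 16.2 and 16.8 CPM (-2.04 ± 0.20, adjusted p = 1.33e-07) and Pth1r at 68.1 and 69.3 CPM (-2.12 ± 0.30, adjusted p = 1.15e-05). Slc34a3 had 2 and 1 counts there, against 22 and 17 counts in normal sections. Slc20a1 was at 38.3 and 33.5 CPM (1.59 ± 0.17, adjusted p = 2.41e-07).

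Slc20a2 was at 34.2 and 36.3 CPM in the ischemic inner stripe (0.48 ± 0.15, adjusted p = 0.0111), a call lost without ischemic section 1 (adjusted p = 0.0899) or 2 (adjusted p = 0.153), within a range over its alternatives that began at 0.000215. Fgfr1 was at 26.4 and 25.9 CPM, against 34.4 and 30.2 CPM in normal sections, and did not pass (-0.31 ± 0.18, adjusted p = 0.152). Library size alone turned this value to 0.05, and without normal section 2 it was -0.39 (adjusted p = 0.0334, range 0.0334 to 0.833).

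In the zone called inner medulla, where 35.2% of all genes were called, Slc34a3 had 0 counts in both ischemic sections, which allows up to 0.940 and 1.06 CPM at 3 counts per section, against 21 and 15 counts in normal sections, so it was at least 14.2-fold lower. Slc34a1 was at 45.4 and 34.2 CPM (-4.50 ± 0.25, adjusted p = 2.21e-10), Kl at 14.7 and 18.0 CPM (-1.99 ± 0.24, adjusted p = 3.51e-06) and Pth1r at 55.8 and 54.3 CPM (-1.79 ± 0.32, adjusted p = 0.000254). With zones standardised over all sections the Pth1r call was lost and its value went to -0.29 (adjusted p = 0.365, with a range that began at 7.63e-16). The impurity of the normal zone bears on all of these. Slc20a1 was at 37.6 and 36.7 CPM, up from 7.40 and 10.7 CPM (1.98 ± 0.23, adjusted p = 2.91e-06).

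Slc20a2 was at 35.4 and 36.3 CPM in this zone against 31.4 and 20.8 CPM (0.51 ± 0.19, adjusted p = 0.0428), and 7 alternatives ended that call, with a range of adjusted p from 0.00934 to 0.608. Fgfr1 was at 27.9 and 28.2 CPM, between its normal values of 49.0 and 24.9 CPM (-0.32 ± 0.22, adjusted p = 0.276). Leaving out normal section 1 turned it to 0.20, and leaving out section 2 gave -0.80. Over the 4 zones 23 of 28 comparisons were called, and Fgfr1 was called in none of them.

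**Figure D3:**
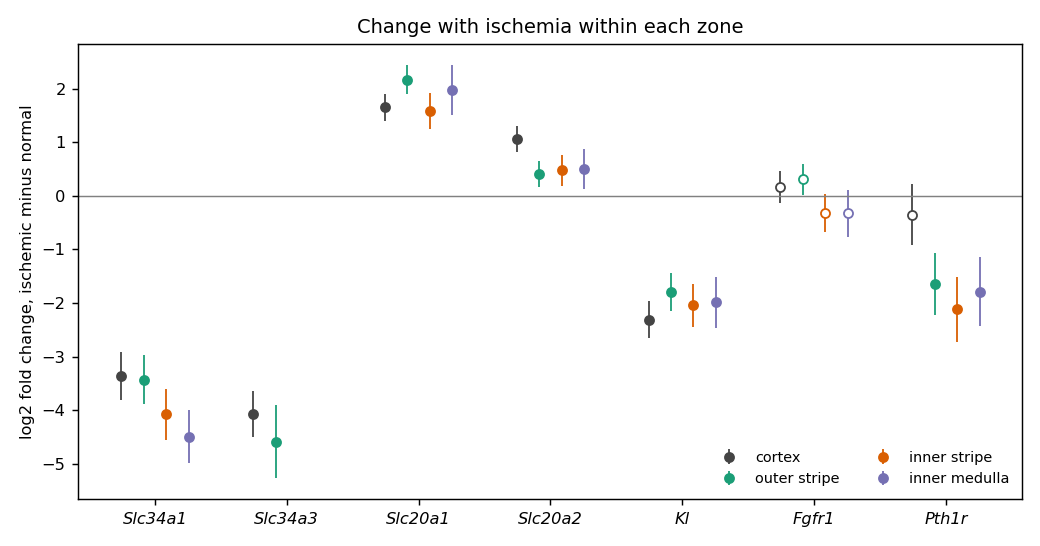
Log2 fold change of ischemic minus normal sections within each zone, with bars of 2 SE, filled points where the edgeR adjusted p passed 0.05 and open points where it did not. Slc34a3 is left out in the inner stripe and inner medulla, where ischemic sections held 2, 1, 0 and 0 counts. The cortical Pth1r point (-0.35) is open and lies above its outer stripe (-1.65) and inner stripe (-2.12) points.

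Whether a change with ischemia differed between zones was tested directly, and 3 of 14 such differences were called. Zones of 1 section share that section, which this fit leaves out, and 6 were called with the section as a block. For Pth1r the change in the outer stripe was lower than that in the cortex by -1.301 ± 0.403 on the log2 scale (adjusted p = 0.0424), and that in the inner stripe was lower than the cortical one by -1.77 ± 0.41 (adjusted p = 0.00711). Of all genes, 11.4% and 11.0% were called in these tests without the block, and no share with the block is given here. In CPM, Pth1r thus had a steeper drop from cortex to medulla after ischemia, with ischemic outer stripe minus cortex at -1.48. Per 1000 proximal marker counts, ischemic Pth1r was at 331 and 320 in cortex and 339 and 315 in outer stripe. It was at 220 and 192 in inner stripe. The normal values in these zones were 173 and 152, 228 and 199, and 214 and 158. The part of the proximal markers in the CPM drop was not tested.

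The other call was Slc20a2, whose rise was smaller in the outer stripe than in the cortex by -0.66 ± 0.17 (adjusted p = 0.0176). It was lost under 6 of 16 alternatives, among them library size alone (-0.48, adjusted p = 0.243), no filter on low counts (adjusted p = 0.0906), boundary spots left out (adjusted p = 0.0593) and without normal section 1 (adjusted p = 0.0561). All 3 calls were lost when either ischemic section was left out, when adjusted p lay between 0.259 and 0.479, while the values stayed between -1.79 and -0.62. DESeq2 and its size factors in edgeR lost the outer stripe difference of Pth1r (adjusted p = 0.0672 and 0.0561), and zones standardised over all sections took its inner stripe difference to -0.42 (adjusted p = 0.558), which zones without neighbouring spots also ended (adjusted p = 0.0692).

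For Slc20a1 the rise was larger in the outer stripe by 0.52 ± 0.18, and for Kl the fall was smaller there by 0.51 ± 0.24, and neither passed (adjusted p = 0.0752 and 0.190). Both were near the threshold: the Slc20a1 difference passed under 5 of 16 alternatives, including the section as a block (0.52, adjusted p = 0.0238) and the replicate block (adjusted p = 0.0402), with a range up to 0.534. The Kl difference passed under 3, without normal section 1 (0.51, adjusted p = 0.0104) or 2 (0.61, adjusted p = 0.00191) and with boundary spots left out (0.63, adjusted p = 0.0327), with a range up to 0.798. The Slc20a2 difference of inner stripe and cortex passed with the section as a block (-0.58, adjusted p = 0.0197) and under 3 other alternatives.

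Within ischemic sections, the order of zones for Slc34a1 stayed the same, cortex above outer stripe (log2 -1.97 ± 0.21, adjusted p = 1.87e-06) above inner stripe. Between outer stripe and cortex 6 of 7 genes were called in ischemic sections, against 26.4% of all genes. Kl was lower in the outer stripe (-0.92 ± 0.18, adjusted p = 0.000641) as was Slc20a2 (-0.38 ± 0.12, adjusted p = 0.0221), and Fgfr1 was higher (0.42 ± 0.15, adjusted p = 0.0397). Without ischemic section 1 or 2 these 3 calls were lost, as were those of Slc34a3 and Pth1r. Over all 16 alternatives the Slc20a2 call was lost under 7, those of Fgfr1 and Slc34a3 under 3 and those of Kl and Pth1r under 2. The Slc34a3 difference ran from -3.47 to -0.90 over the settings. In the ischemic inner stripe and inner medulla 6 of 7 genes were called against the cortex, each of them lower. Of all genes, 42.4% and 39.4% were called in either direction, and no share called lower is given here. The Slc20a1 call was lost under 3 and 4 of 16 alternatives in these zones and the Slc20a2 call under 2 and 3.

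**Figure D4:**
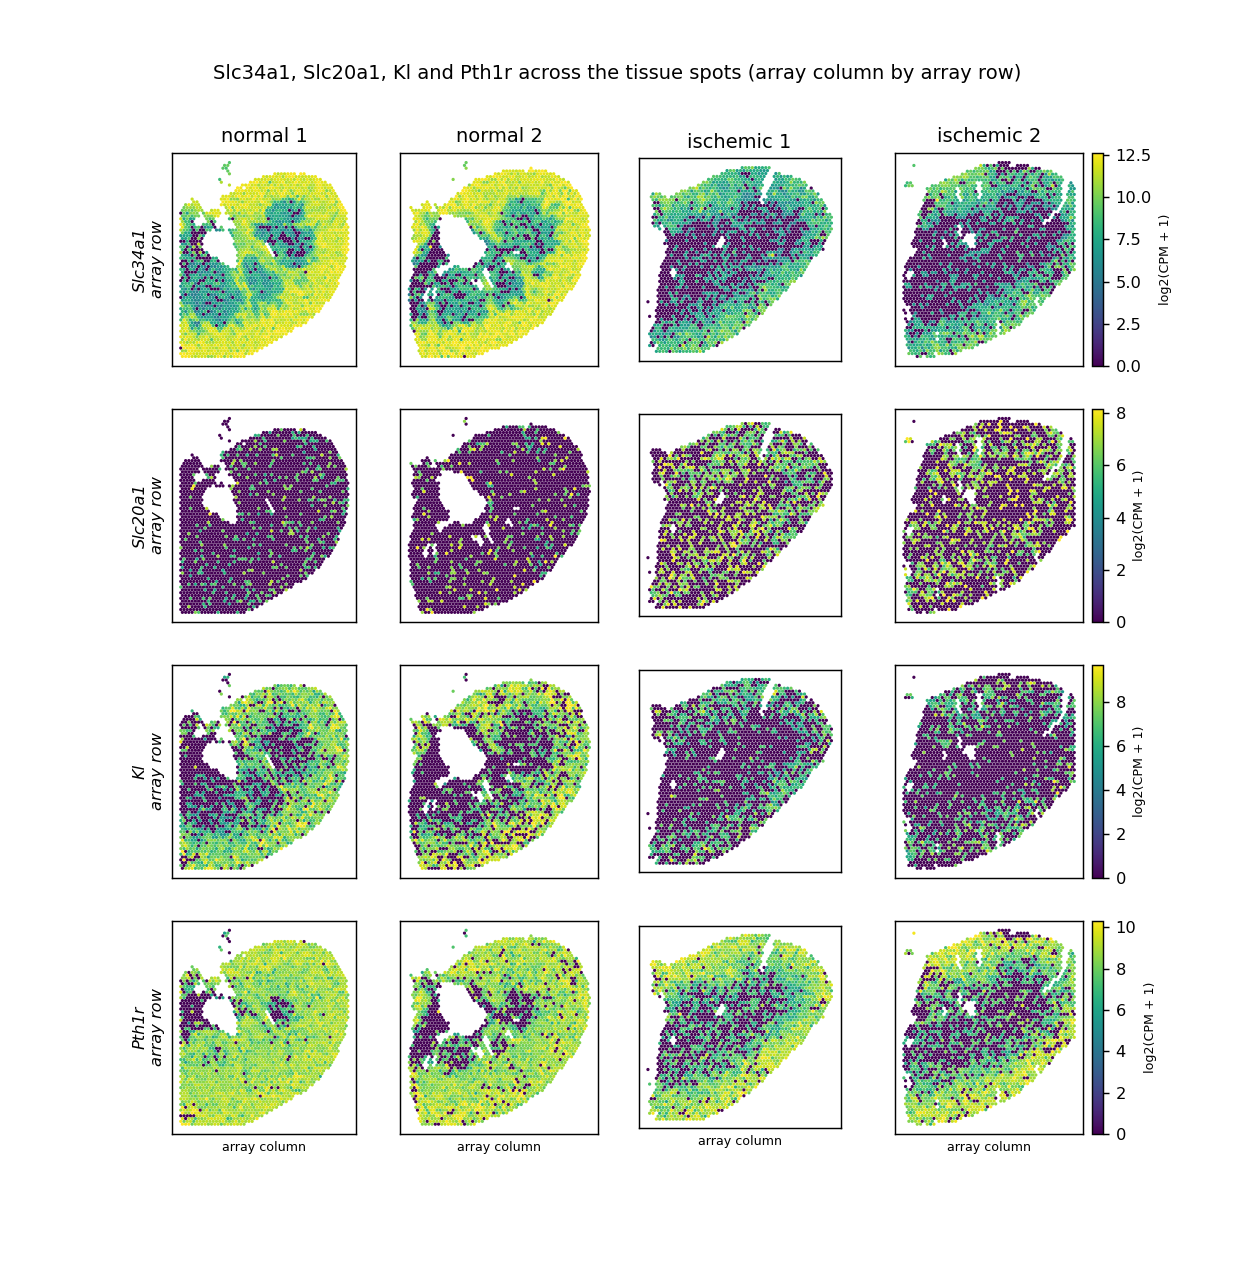
Spots of the 4 sections in array position (array column against array row), coloured by log2(CPM + 1) of the spot's own total, on 1 colour scale per gene across sections. In normal sections Slc34a1 is bright in the outer zones (4666 and 4108 CPM summed over cortex) around darker inner areas, and Pth1r is bright over most of the tissue. In ischemic sections Slc34a1 is dim (414 and 435 CPM in cortex), Pth1r is brightest at the rim, and Slc20a1 is seen in more spots.

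Single cortex spots showed how even these levels were. In normal cortex the 10th and 90th percentiles of Slc34a1 were 2510 and 4317 CPM in section 1 and 2577 and 4437 in section 2. The medians were 3406 and 3566. In ischemic cortex they were 180 and 779 CPM in section 1 and 180 and 752 in section 2, around 366 and 341. The ischemic windows therefore spread over a wider range relative to their median, and no ischemic 90th percentile reached a normal 10th percentile. With fewer counts per window, counting error is also larger there.

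Pth1r windows overlapped widely, with medians of 506 and 469 CPM in normal and 445 and 441 CPM in ischemic cortex. For Kl the 10th percentile in normal cortex, 132 and 152 CPM, lay above the 90th percentile in ischemic cortex, 117 and 114 CPM. Kl was thus separated by these percentiles at the scale of such windows, and single spots were not compared.

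The cortex spots nearest to and farthest from the tissue edge, 391 each in normal section 1, 382 in normal section 2 and 315 in each ischemic section, were set side by side. Slc34a1 in the outer and inner spots was at 3851 and 3217 CPM in normal section 1, 3851 and 3384 in normal section 2, 471 and 325 in ischemic section 1 and 521 and 283 in ischemic section 2. It was lower in the inner spots in all 4 sections. Pth1r had the same order in each, with 514 and 479, 473 and 444, 481 and 396, and 464 and 393 CPM, and Kl had no common order. These are descriptions without a test.

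Cortical spots rich in markers of one structure were compared with the other cortical spots of the same condition. In the 10% of normal cortex spots with the most distal convoluted tubule transcripts, Kl was at 390 and 522 CPM, against 259 and 284 CPM in the rest. It was higher in both sections, by 0.75 ± 0.12 on the log2 scale (adjusted p = 0.000269), and 3 of 7 genes were called against 12.3% of all genes.

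The proximal transporters went the other way in these spots, and the proximal marker sum lay lower there too. The sum of the 10 markers was 2269 and 2101 CPM in the rich spots against 3463 and 3206 CPM in the rest, and that of 4 thick limb markers 3401 and 2902 against 2086 and 1751 CPM, and their part in these differences was not tested. Slc34a1 was at 2673 and 2573 CPM against 4129 and 3755 CPM (-0.59 ± 0.11, adjusted p = 0.00114). Slc34a3 was at 18.3 and 33.9 CPM against 45.1 and 47.7 CPM (-0.88 ± 0.19, adjusted p = 0.00284), a call that ended without normal section 1 (-0.55, adjusted p = 0.117, with a range from 1.26e-07 to 0.117 over the alternatives).

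In ischemic cortex Kl was at 78.4 and 68.9 CPM in the spots rich in distal convoluted tubule transcripts and 62.6 and 55.0 CPM in the others, higher in both sections but not past the test (0.33 ± 0.16, adjusted p = 0.400). Slc34a1 was at 285 and 343 CPM against 379 and 395 CPM (-0.31 ± 0.12, adjusted p = 0.258). Slc34a3 had 1 count in the rich spots of each section, against 33 and 26 in the others. The change of the Kl difference between conditions, -0.42 ± 0.20, did not pass either (adjusted p = 0.611).

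Rich and other spots come from the same sections, and with the section as a block all 3 of these differences passed. Kl was then higher in the rich ischemic spots by 0.32 (adjusted p = 0.0465), Slc34a1 lower by -0.31 (adjusted p = 3.35e-07), and the Kl difference smaller after ischemia by -0.41 (adjusted p = 0.0214). Over the alternatives the adjusted p of the change in Kl ran up to 1, and the block was the single setting of 17 in which it passed. The sum of the proximal markers was 1082 and 1032 CPM in the rich ischemic spots against 1311 and 1358 CPM in the others.

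Spots rich in podocyte markers, which lie at glomeruli, had lower Slc34a1 in normal cortex, at 3281 and 2963 CPM against 4415 and 3942 CPM (-0.42 ± 0.13, adjusted p = 0.0326), and lower Kl, at 230 and 243 CPM against 302 and 343 CPM (-0.45 ± 0.12, adjusted p = 0.0158). Both calls were lost with library size alone (-0.10 and -0.15, adjusted p = 0.446 and 0.519). They were also lost without ischemic section 1 (-0.36 and -0.40) or 2 (-0.37 and -0.40). Zones drawn without neighbouring spots ended the Kl call as well (-0.36, adjusted p = 0.0741). The proximal markers summed to 2627 and 2423 CPM in these spots against 3719 and 3364 CPM, and their part was not tested. All genes were called at 13.2% in this comparison.

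Pth1r was at 579 and 540 CPM in podocyte-rich spots and 629 and 493 CPM in the rest, lower in 1 section and higher in the other (-0.00 ± 0.13, adjusted p = 0.995). Fgfr1 was at 38.6 and 35.3 CPM against 26.5 and 26.9 CPM, higher in both, and its difference of 0.48 ± 0.16 just missed the threshold (adjusted p = 0.0538). It passed under 7 of 17 alternatives, whose full range was 0.00615 to 0.370.

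In normal cortex rich in stroma and smooth muscle markers, Fgfr1 was at 32.6 and 45.9 CPM against 24.9 and 24.0 CPM, the only gene of the 7 called there (0.65 ± 0.18, adjusted p = 0.0231), where 12.5% of all genes were called. The call was lost under 4 alternatives, among them without normal section 2 (0.30, adjusted p = 0.480, range 0.000753 to 0.480). In ischemic cortex Fgfr1 was at 33.9 and 46.7 CPM against 30.0 and 28.1 CPM (0.45 ± 0.18, adjusted p = 0.246).

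Over the 3 kinds of spots, 6 of 21 comparisons were called by edgeR in normal cortex and 0 of 21 in ischemic cortex, where 8 had an unadjusted p under 0.05 and DESeq2 called 1. Of all genes, 2.21%, 4.7% and 1.55% were called in ischemic cortex for distal convoluted tubule, podocyte and stroma markers. Of the 21 changes between conditions edgeR and DESeq2 called 0, with 3 at an unadjusted p under 0.05, against 0.458%, 0.102% and 0.931% of all genes. With the section as a block, 18 of all 63 comparisons were called. The shares of all genes above are of the fit without the block and cannot be set beside this count.

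Ischemic spots were last split within each section by the Havcr1 level of the spot and its neighbours together. These were the 315 cortex spots with the highest and the 315 with the lowest level. The outer stripe gave 208 each way in ischemic section 1 and 228 in section 2. In the cortex, 4 of 7 genes were lower in Havcr1-high spots, against 18.6% of all genes called and 8.95% called lower. Slc34a1 was at 249 and 269 CPM in Havcr1-high spots and 549 and 628 CPM in Havcr1-low spots, below in both sections (-1.18 ± 0.06, adjusted p = 8.26e-72 by edgeR and 1.83e-26 by DESeq2). Pth1r was at 362 and 329 CPM against 527 and 584 CPM (-0.68 ± 0.06, adjusted p = 5.05e-25 by edgeR and 8.06e-08 by DESeq2).

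Slc34a3 had 3 and 5 counts in Havcr1-high and 19 and 18 counts in Havcr1-low cortex spots (-2.45 ± 0.52, adjusted p = 4.28e-05 by edgeR, none given by DESeq2). Kl was at 54.5 and 51.9 CPM against 79.5 and 74.4 CPM (-0.53 ± 0.10, adjusted p = 2.57e-06), a call that DESeq2 did not make (adjusted p = 0.211). The test had 4 sums from 2 sections, and its small p-values rest on counts of spots from the same sections. Havcr1-high cortex spots were also deeper, with medians of 13739 and 10563 UMIs against 10733 and 6877, and the part of depth in these differences was not tested.

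Cell type markers moved with this split too. The 10 proximal markers summed to 1161 and 1113 CPM in Havcr1-high against 1620 and 1775 CPM in Havcr1-low cortex spots, and the 4 thick limb markers to 1402 and 1113 against 816 and 671 CPM. The 4 distal convoluted tubule markers were at 206 and 205 against 259 and 236 CPM. Havcr1-high spots thus held less proximal and more thick limb RNA in both sections, and its part in the differences of the 4 genes was not tested.

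In the outer stripe, edgeR and DESeq2 called 0 of the 6 genes tested, 2 had an unadjusted p under 0.05, and 21.2% of all genes were called. Slc34a1 was at 93.5 and 108 CPM in Havcr1-high and 95.4 and 81.2 CPM in Havcr1-low spots, with no common direction (0.18 ± 0.10, adjusted p = 0.234). Pth1r was at 163 and 144 CPM against 164 and 161 CPM (-0.08 ± 0.08, adjusted p = 0.564), and Kl at 32.7 and 24.7 CPM against 34.9 and 41.0 CPM (-0.38 ± 0.16, adjusted p = 0.0855). Kl passed under 3 of 12 alternatives, with library size alone (-0.50, adjusted p = 0.00773), boundary spots left out (-0.42, adjusted p = 0.0446) and zones standardised over all sections (-1.66, adjusted p = 0.0108), with a range up to 0.835. Pth1r passed with zones drawn without neighbouring spots (-0.44, adjusted p = 0.00486, range up to 0.930).

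The 4 thick limb markers summed to 2108 and 1653 CPM in Havcr1-high and 3648 and 3734 CPM in Havcr1-low spots of the outer stripe, the reverse of the cortex. The difference between cortex and outer stripe was not tested, and the outer stripe value of Slc34a1 had no stable sign: a narrower split gave 0.46 (adjusted p = 0.000657) and zones drawn without neighbouring spots -0.51 (adjusted p = 0.00632), within a range up to 0.740.

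**Figure D5:**
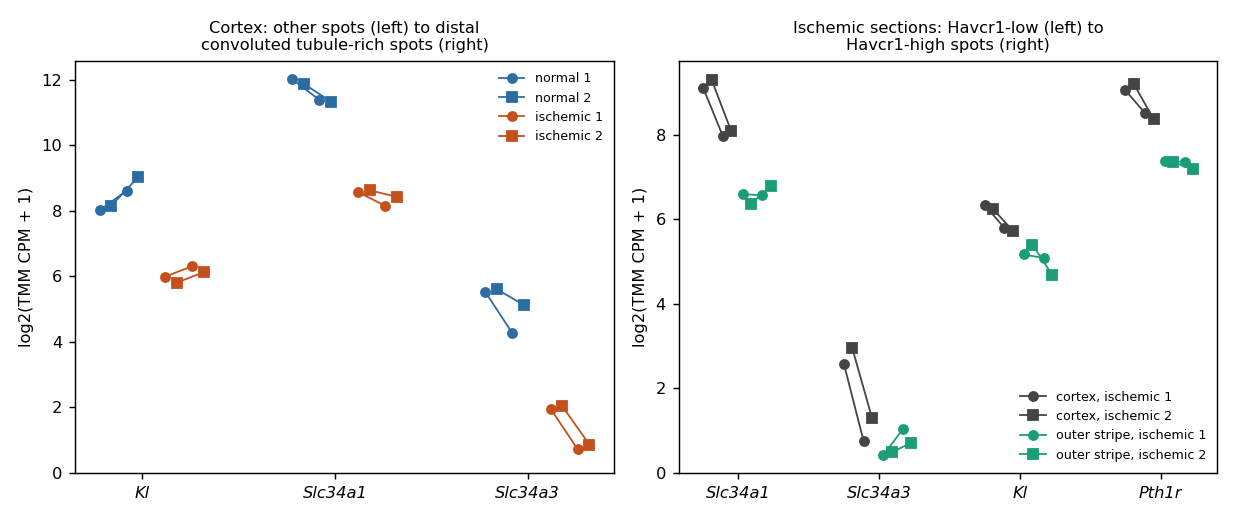
Left, log2(TMM CPM + 1) of Kl, Slc34a1 and Slc34a3 in other cortex spots (left end of each line) and in spots rich in distal convoluted tubule transcripts (right end), 1 line per section. Right, 4 genes in Havcr1-low (left end) and Havcr1-high (right end) spots of ischemic sections, dark for cortex and green for outer stripe. Kl rises with distal convoluted tubule transcripts in all 4 sections (390 and 522 against 259 and 284 CPM in normal ones), and the dark Slc34a1 lines fall (549 and 628 to 249 and 269 CPM). Slc34a3 points of the outer stripe rest on 1 to 4 counts.

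Other genes of phosphate, FGF23, parathyroid hormone and vitamin D biology were read from 8 lists holding 58 genes, of which 49 could be tested. In whole sections 15 were higher and 19 lower, with a median log2 fold change of -0.09, against a median of 0.04 and calls for 60.6% of all genes. Among 5 other phosphate carriers, 4 fell and 1 rose. Slc34a2, the cotransporter NaPi-IIb, which is best known from gut and lung, rose from 3.44 and 3.04 CPM to 33.0 and 39.0 CPM (log2 3.46 ± 0.13, adjusted p = 1.74e-07), in contrast to both SLC34 genes of the kidney. The organic anion and phosphate transporters Slc17a3 and Slc17a1 fell by 1.66 and 1.39 on the log2 scale and the phosphate exporter Xpr1 by 0.70.

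Of 4 genes that anchor the transporters at the apical membrane, Pdzk1 fell from 944 and 706 CPM to 193 and 176 CPM (log2 -2.16 ± 0.17, adjusted p = 8.99e-06) and Slc9a3r1, which encodes NHERF1, fell by 1.17, while Ezr, which encodes ezrin, rose by 0.68. Pdzk1 and Slc9a3r1 moved in the direction of the SLC34 genes. No count of Fgf23 was found in any section. Of 11 tested FGF signalling genes 4 were higher and 3 lower, led by the feedback inhibitor Spry2 (2.64), the receptor Fgfr3 (-1.14), the ligand Fgf1 (-1.02) and the inhibitor Spred1 (1.01).

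The 3 proteases listed for Klotho shedding were all higher, by 0.42 for Adam17, 0.38 for Adam10 and 0.30 for Bace1 (adjusted p = 0.00715, 0.00618 and 0.0373). Of 4 tested genes downstream of the parathyroid hormone receptor, the protein kinase A subunits Prkar1a (0.52) and Prkaca (0.39) were higher and the others were not called. Pth had 0 counts in every section, and Pthlh had between 1 and 8. RNA of these ligands of Pth1r was thus at or near 0 in the sections, and the ligands themselves were not measured.

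In vitamin D metabolism, Cyp24a1, the enzyme that degrades active vitamin D, rose from 16.4 and 19.2 CPM to 111 and 116 CPM (log2 2.67 ± 0.12, adjusted p = 2.92e-07). Cyp27b1, the enzyme that makes it, had only 2 and 6 counts in normal and 10 and 10 after ischemia and was not tested. The receptor Vdr was lower (-0.82), as were the endocytic receptors Lrp2, megalin (-2.31), and Cubn, cubilin (-2.20). In all, 1 of 6 tested genes of this list was higher and 4 were lower.

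Of 8 tested genes of phosphate balance and mineral, 2 were higher and 2 lower: Sfrp4 at -2.68, the pyrophosphate transporter Ank at 1.52, the secretory kinase Fam20c at -1.03 and Galnt3, which glycosylates FGF23, at 0.54. Of 8 distal calcium transport genes 4 were lower, namely Calb1 (-3.21), Slc8a1 (-2.44), Casr (-1.94) and S100g (-1.02), and 1 was higher. Calb1 and Slc8a1 are genes of the distal segments in which Klotho is best known.

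The genes most like each of the 7 were found by the Pearson correlation of log2 CPM over 16 sums of 4 sections and 4 zones, among 10699 genes. These sums share sections, and the values are descriptions. For Slc34a1 they included Miox (0.997) and Cyp2e1 (0.994), and for Slc34a3 they were Fam151a (0.993), Cyp2d26 (0.988) and Acmsd (0.986). For Pth1r they included Aldh2 (0.993) and Hnf4a (0.992).

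Kl ran closest to Akr1a1 (0.991), Asl (0.980) and Prodh (0.978). Slc20a1 ran with Sept11 (0.981), Gm3776 (0.980) and Cops3 (0.980), and Slc20a2 with Fga (0.961), Hotairm1 (0.956) and Coro1c (0.948). For Fgfr1 the closest gene reached 0.885 (Adrm1), lower than for any other of the 7 genes.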

How the data were processed

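Visium data of 4 left kidney sections (2 normal, 2 ischemic), permeabilised for 12 min, were used here, a part of the sections that the study profiled. The values deposited by the authors are unnormalized UMI counts of each gene in each tissue spot, made with Space Ranger 1.3.0 on mm10 by the submitters' processing notes, with the annotation not given in the sources used here. Positions come from GENCODE M21, in which 99.8% of gene identifiers matched.

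Counts were summed over the tissue spots of each section, zone or spot class, and the section was the replicate. Sums were tested with edgeR 4.0.16 in R 4.3.3 (filterByExpr, TMM, quasi-likelihood test, Benjamini-Hochberg adjustment over all genes of a contrast, threshold 0.05). All groups of a model shared 1 estimate of the spread, and SE is the log2 fold change divided by the square root of F. CPM are TMM-scaled unless they are of mapped single spots, windows of a spot and its neighbours, or cortex depth, which used the total UMI count.

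A spot's zone was its highest marker score: CPM over the spot and up to 6 neighbours, log2(CPM + 1), mean over 5 cortex (Slc5a2, Slc5a12, Slc22a6, Slc22a8, Slc12a3), 5 outer stripe, 4 inner stripe or 5 inner medulla genes, standardised within the section. Pelvis needed 10 counts of 6 genes and the top 5%. Marker-rich spots were the top 10% of cortex spots. Havcr1-high and Havcr1-low spots, equal in number, were chosen by Havcr1 CPM over the spot and up to 6 neighbours. They were fitted with the section as a block.

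The genes, lists and tests were chosen with earlier results of these data known. The rule for names was all 7 genes, up to 4 called genes per list by size of change, the hormones and enzymes Fgf23, Pth, Pthlh, Cyp27b1, Cyp24a1 and Vdr, and the 3 genes most like each at a mean of 5 CPM or more. Some of the last are not reported here.

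On simulated whole sections (15305 genes, 200 changed), edgeR recovered 78 of 87 changes of log2 1 and 112 of 113 of log2 2 with 5 false calls. For the cortex comparison (14158 genes) it recovered 87 of 91 and 109 of 109 with 10 false calls. Alternatives were DESeq2 1.42.0, other scalings, filters, spot limits, zone rules, blocks and leaving out each section. Limits at 0 counts used 3 counts and cover counting error only. Barcodes mark array positions, and 1490 of them were under tissue in every section.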

Additional observations from a re-analysis of the deposited data

Results flagged for a closer look

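For 3 differences between zones the response to ischemia passed the test of the difference itself, by the quasi-likelihood test of edgeR after Benjamini-Hochberg adjustment. For Pth1r the change in the outer stripe minus that in the cortex was -1.301 (adjusted p = 0.0424), and in the inner stripe minus the cortex -1.774 (adjusted p = 0.00711). For Slc20a2 the change in the outer stripe minus that in the cortex was -0.6575 (adjusted p = 0.0176). Each was lost when ischemic section 1 or ischemic section 2 was left out (adjusted p from 0.259 to 0.479), when the remaining ischemic section is assumed to vary like the other groups. The Slc20a2 difference was lost under 4 other alternatives as well (adjusted p from 0.0561 to 0.243) and the Pth1r differences under 2 others each (0.0561 to 0.558). The part of the zone boundaries, which rest on transcripts that themselves fell with ischemia, was not tested beyond the alternative zone rules.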

How the results depend on the processing

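None of the 71 member values past the threshold changed direction under any alternative run: of 1095 alternative values, 1012 stayed past it and 83 did not. In whole sections 6 or 7 of 7 genes were called under every alternative, and within zones 20 to 26 of 28. The count of zone differences that changed with ischemia went from 3 to 5 with the replicate block and 6 with the section as a block, and from 0 (without ischemic section 1 or 2) to 8 (without normal section 2) when a section was left out. Calls in marker-rich spots went from 6 to 11 with the replicate block, 18 with the section as a block, 11 with the top 5% and 10 with zones standardised over all sections, and from 4 to 11 without 1 section. Zones within a condition gave 20 to 32 calls without 1 section, against 31. For Havcr1-high against low spots, 4 calls became 2 with DESeq2 and 7 with a narrower split. Shares of all genes called under these alternatives are not given here, so the counts describe calls among the 7 genes only.

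Values short of the threshold that turned sign were Fgfr1 in the inner stripe (0.0514 with library size only) and inner medulla (-0.80 to 0.20 without 1 section), Pth1r in podocyte-rich normal spots (0.32 with library size only, 0.11 with the top 5%, -0.14 to 0.19 without 1 section), and in Havcr1-high outer stripe Pth1r (0.0615 with a narrower split) and Slc34a1 (-0.69 with zones standardised over all sections, -0.51 without neighbours). Of these, 0.32 and -0.51 passed the threshold (adjusted p = 0.0254 and 0.00632). The cause was not tested.

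The replicate numbers of the labels gave only 2 pairs, whose deviations correlated at 0.162 over 15305 genes, so the block was an alternative only, and the samples share only a number. With 1 section left out, the lone section of a group is assumed to vary like the others, and fewer sections enter. Depth limits Slc34a3 most, with 6 or fewer counts in each ischemic zone other than the cortex.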
